A study of Rattus norvegicus with 10 samples.

Results

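Transcripts of 6 genes of arachidonic acid metabolism were followed in rat gastric mucosa after dosing with non-steroidal anti-inflammatory drugs (NSAIDs). The genes were Ptgs1, Ptgs2, Pla2g4a, Hpgd, Alox5 and Alox15, chosen by name and identifier, each kept because its listed chromosome matched the one given for it, and they are 6 of the 32623 genes listed in every count file. Gene symbols come from that pairing of identifiers and symbols, since the files hold identifiers only. The tissue was gastric mucosa of the Sprague Dawley strain, sequenced as 10 libraries, 2 in each of 5 groups. The control group carries no treatment label. In 3 groups a single drug was dosed orally and mucosa was collected after 4 h, with a dose of 48 mg/kg for indomethacin, 75 mg/kg for diclofenac and 400 mg/kg for aspirin. In the fifth group, indomethacin at 48 mg/kg by mouth followed 30 min after an intraperitoneal dose of 40 mg/kg honokiol, a plant lignan. The time label of that group is 0.5 h, which was read as the lead of honokiol, so sampling at 4 h rests there on the general protocol. Sex, age and vehicle are not given in the labels used here, and groups with ibuprofen, vehicle or honokiol alone were not analysed here. Separate animals for the replicates of a group are not stated in the labels, so p-values measure only the spread between libraries, which may be technical.

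The enzymes encoded by these genes release arachidonic acid or act on it or its products, and the lipoxygenases form branches parallel to the cyclooxygenases. Cytosolic phospholipase A2, the product of Pla2g4a, frees arachidonic acid from membranes. The cyclooxygenases encoded by Ptgs1, which most tissues express steadily, and by Ptgs2, which inflammatory and growth signals induce, turn it into the precursor of all prostaglandins. Prostaglandin dehydrogenase, the product of Hpgd, inactivates prostaglandin E2. Alox5 encodes the lipoxygenase that starts leukotriene synthesis in myeloid cells, and Alox15 encodes a lipoxygenase whose products include precursors of lipoxins. In the stomach, prostaglandins sustain mucus and bicarbonate secretion and mucosal blood flow, and NSAIDs block cyclooxygenase activity. Enzyme activity and prostaglandin levels were not part of these data.

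Library totals ranged from 23892226 to 44977459 counts, and mitochondrial features took 21.1% to 23.8% of counts with aspirin and diclofenac, 32.4% and 21.7% with indomethacin and 31.5% to 36.2% in the other libraries. Leaving out mitochondrial and short single-exon features together gave the same number of called genes among the 6 in each comparison. On 7 features of chromosome Y, 4 libraries had 2733 to 4438 counts: replicate 1 of control, replicate 1 of indomethacin, and the whole group given honokiol. The other 6 libraries, among them all aspirin and diclofenac libraries, had at most 47. The 2 controls therefore differ in Y reads, and values without control replicate 1 are given for genes whose results change with it. The labelled cell type is epithelial. No identifier could be paired with a symbol from the reference tables (0 of 32623), so neither marker genes of epithelial or other cells nor the other genes of the pathway could be read. Since whole tissue was sequenced, fewer cells of a type and less RNA per cell cannot be told apart in any result.

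The promoters of the 2 cyclooxygenase genes and of Alox5 are shown because Ptgs1 and Ptgs2 encode the same enzymatic step and moved in opposite directions with diclofenac, and because Ptgs2 and Alox5 were both called higher with diclofenac and aspirin. Each sequence is the 250 bases before the gene's start in RefSeq on the GRCr8 build, 5′ to 3′ on the gene's strand, at chr3:39981169-39981418 (plus) for Ptgs1, chr13:64713813-64714062 (plus) for Ptgs2 and chr4:151251127-151251376 (minus) for Alox5. Capitals mark matches to the 7 motifs searched on both strands.
Ptgs1: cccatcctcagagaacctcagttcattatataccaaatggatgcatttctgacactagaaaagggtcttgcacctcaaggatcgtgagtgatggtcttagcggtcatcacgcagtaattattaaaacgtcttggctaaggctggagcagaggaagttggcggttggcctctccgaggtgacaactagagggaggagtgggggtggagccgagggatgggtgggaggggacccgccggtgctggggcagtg
Ptgs2: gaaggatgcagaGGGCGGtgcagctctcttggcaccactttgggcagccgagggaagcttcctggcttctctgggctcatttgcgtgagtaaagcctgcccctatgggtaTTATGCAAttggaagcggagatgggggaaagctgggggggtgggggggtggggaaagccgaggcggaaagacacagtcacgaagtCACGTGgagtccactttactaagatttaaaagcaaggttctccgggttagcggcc
Alox5: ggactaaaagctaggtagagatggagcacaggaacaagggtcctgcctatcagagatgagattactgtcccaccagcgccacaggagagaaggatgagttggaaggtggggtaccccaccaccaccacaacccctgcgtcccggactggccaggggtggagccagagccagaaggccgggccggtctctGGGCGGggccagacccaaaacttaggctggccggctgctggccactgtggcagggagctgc
The motifs were a TATA box (TATAAA, in 12.9% of the 33469 promoters of the table at this length), an E-box (CACGTG, 5.59%), a C/EBP-type motif (TTNNGCAA, 9.22%), an AP-1-type motif (TGANTCA, 6.34%), a cAMP response element (TGACGTCA, 1.59%), a GC box (GGGCGG, 30.5%) and the kappaB motif (4.24%). The Ptgs2 sequence held 1 E-box match 55 to 50 bases before the start, 1 C/EBP-type match 140 to 133 bases before it and 1 GC box match 238 to 233 bases before it. In the Ptgs1 sequence none of the 7 motifs was matched. The Alox5 sequence held 1 GC box match, 61 to 56 bases before the start. Of the other promoters, that of Pla2g4a held 1 TATA box match and that of Hpgd 1 GC box match, both on the opposite strand, and 5 of the 6 genes had an entry. No matches overlapped. GC content was 54.4% for Ptgs1, 57.2% for Ptgs2 and 62.8% for Alox5, against a median of 51.2% over all promoters. A match is a description of letters and was not tested for binding.

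The levels of the 6 genes are given in TMM-scaled CPM, the counts of a library scaled to a common total. Ptgs2 lay far above control with each of the 3 drugs given alone, at 34.2-fold with indomethacin, 39.5-fold with diclofenac and 22.2-fold with aspirin, and it passed the test with diclofenac and aspirin. With honokiol before indomethacin it lay at 1.88-fold of control. Alox5 was 2.37-fold to 3.09-fold above control in the drug groups and 2.88-fold with honokiol plus indomethacin. Ptgs1 with diclofenac and Pla2g4a with aspirin passed the test as lower than control. Alox15 was high in a single library.

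All 6 genes passed the filter on low counts. A gene was called when its edgeR quasi-likelihood test over 16346 genes gave an adjusted p under 0.05. With indomethacin against control, 0 of the 6 were called, where 0.752% of all tested genes were called higher and 0.0245% lower. At an unadjusted p under 0.05 stood 3 of the 6, against 1614 of all 16346 genes. DESeq2 called 2 of the 6, against 376 genes in all. With diclofenac 2 of 6 were called higher and 1 lower, against 4.76% and 3.11% of all genes. With aspirin 2 of 6 were called higher and 1 lower, against 9.5% and 8.26%. For honokiol plus indomethacin against indomethacin alone 0 of 6 were called, against 0.0428% of all genes higher and 0.3% lower. There 2 of the 6 had an unadjusted p under 0.05, against 1552 of all 16346 genes. DESeq2 called 1 of the 6, against 243 genes in all. For honokiol plus indomethacin against control 0 of 6 were called by edgeR (1 at an unadjusted p under 0.05, 1 by DESeq2), where all genes gave 0% higher and 0% lower, 816 of them had an unadjusted p under 0.05 and DESeq2 called 16. The 4 comparisons with control share the same 2 control libraries.

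Groups without overlap were frequent among all genes at 2 libraries each. With indomethacin 3 of the 6 genes lay above both controls and 1 below, against 20.1% and 18.2% of all tested genes. With diclofenac the counts were 2 above and 3 below, against 27% and 28.3%. With aspirin they were also 2 above and 3 below, against 30.4% and 30.2%. Honokiol plus indomethacin had 1 gene above and 2 below indomethacin alone, against 21.7% and 23.6%, and 2 above and 0 below control, against 18.3% and 19.4%. The median log2 fold change of the 6 genes was 0.52 with indomethacin, -0.12 with diclofenac and -0.24 with aspirin, where the medians of all genes were -0.02, -0.01 and 0.00. In each of these comparisons some of the 6 genes lay above control and others below. Shares over all genes were counted for pairs of groups only. How common a split across more groups is among all genes was not counted.

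**Figure D1:**
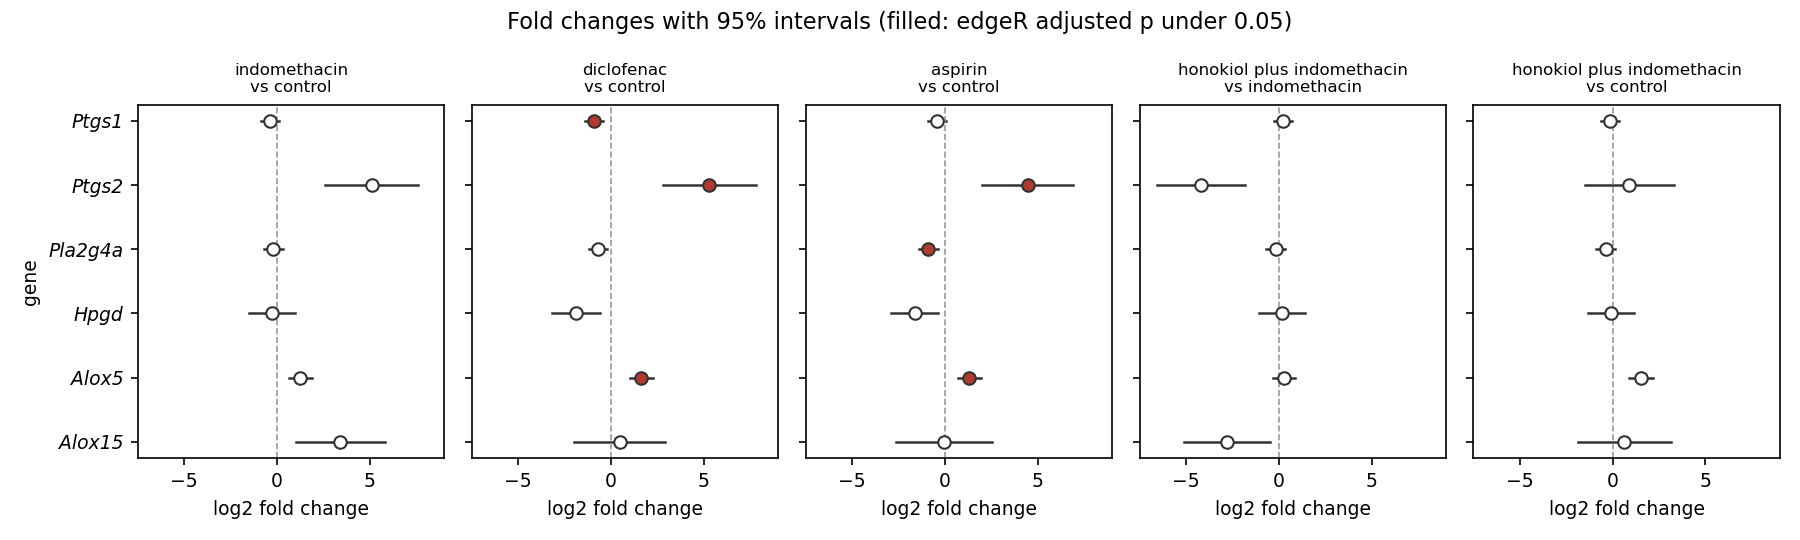
Log2 fold change of each gene (rows) in each of the 5 comparisons (panels), with 95% intervals from the edgeR fit and filled points at an adjusted p under 0.05. Ptgs2 lies furthest right with each of the 3 drugs given alone and furthest left for honokiol plus indomethacin against indomethacin, and the intervals of Ptgs2 and Alox15 are the widest.

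Pla2g4a (ENSRNOG00000002657), which encodes the phospholipase that releases arachidonic acid, lies on chromosome 13 from 66988937 to 67206693 on the minus strand in the files' coordinates, whose build none of the sources used here names, and has 20 distinct exons. Its level was 27.4 and 18.0 CPM in control, 21.6 and 18.2 CPM with indomethacin, 13.3 and 14.7 CPM with diclofenac, 11.8 and 12.7 CPM with aspirin and 20.1 and 15.3 CPM with honokiol plus indomethacin. All 4 aspirin and diclofenac libraries lay below all other libraries, a split whose share over all genes was not counted. Pla2g4a fell with aspirin, at -0.89 ± 0.23 (log2 fold change ± SE, edgeR adjusted p = 0.028). The diclofenac value of -0.70 ± 0.23 did not pass (edgeR adjusted p = 0.084), nor did indomethacin at -0.20 ± 0.23 (0.84), honokiol plus indomethacin against control at -0.36 ± 0.23 (0.83) or against indomethacin at -0.17 ± 0.23 (0.89). The aspirin call was lost without control replicate 1, the control with Y reads, at -0.52 (edgeR adjusted p = 0.20), without aspirin replicate 1 at -0.84 (0.15) with a term for Y reads at -0.65 (0.11), with only libraries without Y reads at -0.52 (0.30) and with only the 2 groups compared in the fit at -0.86 (0.068). Diclofenac passed without control replicate 2 at -0.94 (0.039). Ptgs2 is the next listed gene on that chromosome, 144 kb away on the opposite strand, with 0 listed features between them. RefSeq places 2 features between the genes, 0 of them protein-coding. With aspirin these neighbours were called in opposite directions. Their signs also differed with indomethacin, diclofenac and honokiol plus indomethacin against control, where Pla2g4a did not pass.

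Ptgs1 (ENSRNOG00000007415), the constitutive cyclooxygenase gene, lies on chromosome 3 from 15560712 to 15582344 on the plus strand and has 11 exons. Its level was 13.8 and 10.6 CPM in control, 8.42 and 10.4 CPM with indomethacin, 6.10 and 6.69 CPM with diclofenac, 10.2 and 7.67 CPM with aspirin and 11.5 and 10.4 CPM with honokiol plus indomethacin. The diclofenac libraries were the 2 lowest of the 10, and the drug groups other than honokiol plus indomethacin did not overlap control. Ptgs1 fell with diclofenac, at -0.93 ± 0.22 (log2 fold change ± SE, edgeR adjusted p = 0.030), a level 1.90-fold lower. Aspirin gave -0.45 ± 0.22 (edgeR adjusted p = 0.16) and indomethacin -0.37 ± 0.22 (0.64), which did not pass. Honokiol plus indomethacin gave -0.16 ± 0.22 against control (edgeR adjusted p = 0.88) and 0.22 ± 0.22 against indomethacin (0.83). The diclofenac call was lost without control replicate 1 at -0.70 (edgeR adjusted p = 0.19), diclofenac replicate 1 at -0.83 (0.18), diclofenac replicate 2 at -1.0 (0.096) or honokiol plus indomethacin replicate 2 at -0.90 (0.052), and with a term for Y reads at -0.91 (0.094).

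Ptgs2 (ENSRNOG00000002525), the inducible cyclooxygenase gene, lies on chromosome 13 from 67351087 to 67359335 on the plus strand and has 10 exons. Control libraries held 1.77 and 1.24 CPM, from 56 and 37 counts. Indomethacin libraries held 34.7 and 68.6 CPM, aspirin libraries 13.2 and 53.6 CPM and diclofenac libraries 25.1 and 94.2 CPM. Honokiol plus indomethacin libraries held 3.53 and 2.1 CPM. In order of the group means, control lay below honokiol plus indomethacin, which lay below aspirin, with no overlap at either step, while aspirin, indomethacin and diclofenac overlapped each other. The lowest library of the 3 drugs given alone stood at 13.2 CPM and the highest library of the other 2 groups at 3.53 CPM. Replicates within a drug group differed by up to 4.05-fold, in aspirin.

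Ptgs2 rose with diclofenac, at 5.31 ± 1.04 (log2 fold change ± SE, edgeR adjusted p = 0.035), and with aspirin, at 4.47 ± 1.01 (0.033). The 95% intervals of the folds were 6.89 to 227 and 4.07 to 121. Indomethacin gave a log2 fold change of 5.10 ± 1.04, with a fold interval of 6.04 to 194. It did not pass (edgeR adjusted p = 0.13), although DESeq2 called it (adjusted p = 5.6e-06). The unadjusted edgeR p was 0.0023 with indomethacin, 0.0019 with diclofenac and 0.0040 with aspirin. The adjustment depends on the p of all genes, so passing does not rank the 3 drugs by evidence for Ptgs2. Ranked by log2 fold change among 16346 genes, Ptgs2 stood 36th from the top with indomethacin, 72nd with diclofenac and 99th with aspirin. The calls rest on the full set of libraries. The diclofenac call was lost when either control, either indomethacin library, either honokiol plus indomethacin library or diclofenac replicate 2 was left out, at log2 fold changes of 4.05 to 5.62 (edgeR adjusted p = 0.055 to 0.19). The aspirin call was lost without either control, either aspirin library, either honokiol plus indomethacin library or indomethacin replicate 2, at 3.13 to 5.15 (edgeR adjusted p = 0.051 to 0.16). With a term for Y reads the values were 5.08 for diclofenac (edgeR adjusted p = 0.13) and 4.25 for aspirin (0.12).

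**Figure D2:**
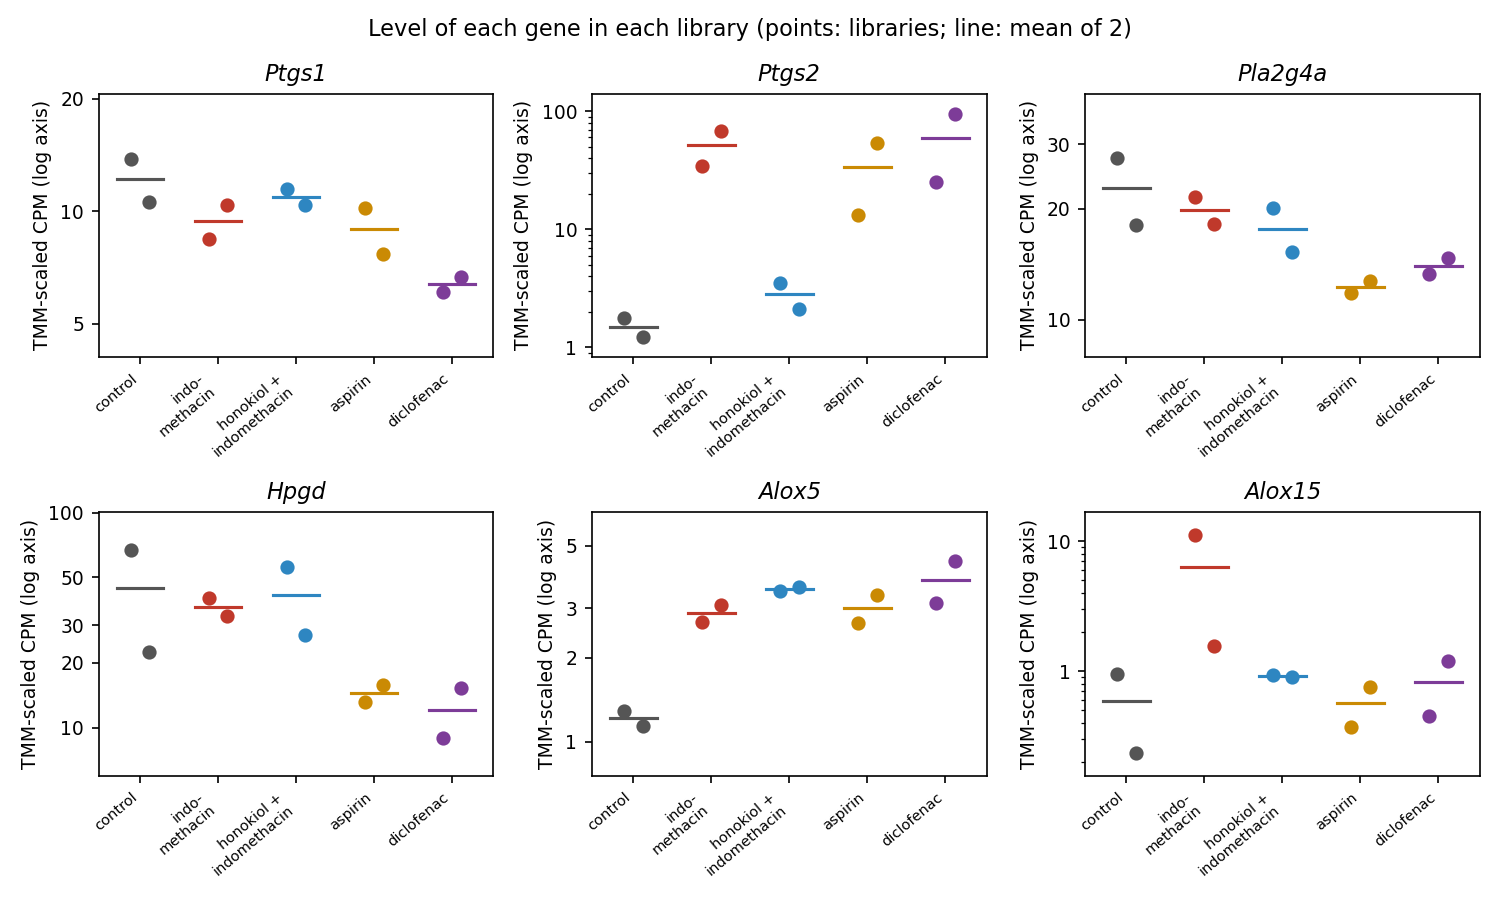
Level of each gene as TMM-scaled CPM on a log axis, with 1 point per library and a line at the mean of the 2 libraries of a group. The Ptgs2 libraries of indomethacin, aspirin and diclofenac sit between 13.2 and 94.2 CPM, all above the control and honokiol plus indomethacin libraries, and a single indomethacin library stands out for Alox15.

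Within a library, the balance between the cyclooxygenase transcripts needs no scaling between libraries. Divided by exon length, Ptgs2 made up 7.61% of the summed Ptgs1 and Ptgs2 counts in control replicate 1 (exact 95% interval 5.77 to 9.82, counting error only) and 6.96% in replicate 2 (4.92 to 9.53). With indomethacin the share was 72.5% (69.9 to 75.0) and 80.9% (79.2 to 82.5). With diclofenac it was 72.5% (69.7 to 75.1) and 90.0% (88.9 to 91.1), and with aspirin 45.4% (41.4 to 49.3) and 81.8% (79.9 to 83.5). Ptgs2 was thus the more abundant of the pair per length in 5 of the 6 libraries of the drugs given alone, with aspirin replicate 1 the exception. Honokiol plus indomethacin libraries had 16.5% (13.6 to 19.7) and 11.5% (8.71 to 14.8), between control and the drugs given alone. As a ratio per length, Ptgs2 to Ptgs1 was 0.0786 ± 0.0053 in control, 3.44 ± 1.13 with indomethacin, 5.83 ± 4.52 with diclofenac, 2.66 ± 2.58 with aspirin and 0.163 ± 0.048 with honokiol plus indomethacin (SD over the 2 libraries).

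Hpgd (ENSRNOG00000010610), whose product inactivates prostaglandins, lies on chromosome 16 from 37457135 to 37495758 on the minus strand and has 7 exons. Its level was 67.1 and 22.4 CPM in control, 40.2 and 32.9 CPM with indomethacin, 8.96 and 15.2 CPM with diclofenac, 13.1 and 15.8 CPM with aspirin and 56.0 and 27.1 CPM with honokiol plus indomethacin. All 4 aspirin and diclofenac libraries lay below all other libraries, but the controls differed 3.00-fold from each other. The share of all genes with that split was not counted. The log2 fold change was -1.89 ± 0.55 with diclofenac (SE, edgeR adjusted p = 0.077) and -1.63 ± 0.55 with aspirin (0.074), and neither passed, although DESeq2 called both (adjusted p = 0.00036 and 0.0021). Without control replicate 1, the control with Y reads, these values were -0.86 (edgeR adjusted p = 0.35) and -0.59 (0.41), and without control replicate 2 they were -2.44 (0.017) and -2.18 (0.020). Control replicate 2 and all aspirin and diclofenac libraries lack Y reads, and a term for Y reads gave -1.25 and -0.99 (edgeR adjusted p = 0.23 and 0.24). Indomethacin gave -0.29 ± 0.53 (edgeR adjusted p = 0.90), which became 0.73 without control replicate 1. Honokiol plus indomethacin gave 0.18 ± 0.53 against indomethacin (edgeR adjusted p = 0.95) and -0.11 ± 0.53 against control (0.97).

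Set against the enzymes that make the prostaglandin precursor, Hpgd was 5.40 ± 2.99 times the sum of Ptgs1 and Ptgs2 per length in control and 5.34 ± 2.08 times with honokiol plus indomethacin (SD, n = 2 each). The ratio was 1.60 ± 0.84 with indomethacin, 0.899 ± 0.382 with aspirin and 0.527 ± 0.209 with diclofenac. The lowest library of control and of honokiol plus indomethacin, at 3.28, lay above the highest library of the 3 drugs given alone, at 2.19. These ratios are descriptions without a test.

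**Figure D3:**
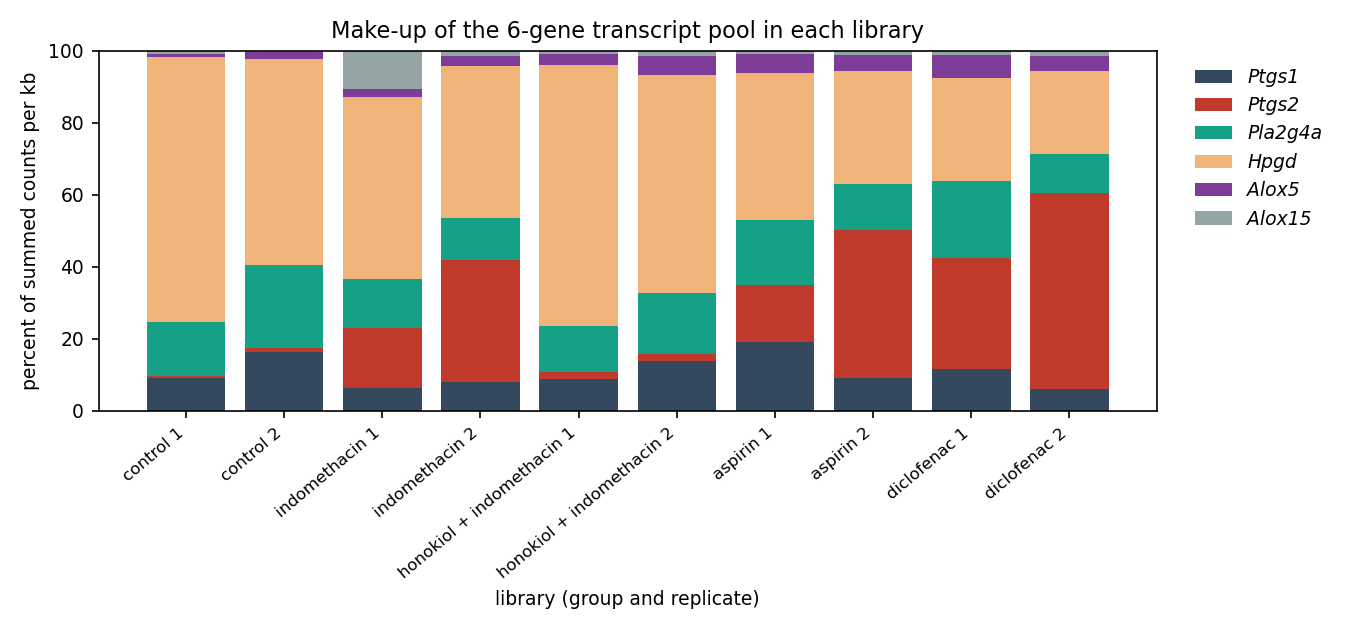
Share of each gene in the summed counts per kb of the 6 genes, with 1 bar per library and the 6 shares of a bar adding to the whole. Hpgd holds the largest share in all libraries but aspirin replicate 2 and both diclofenac libraries, where Ptgs2 does, and Ptgs2 holds 15.8% to 54.4% in libraries of indomethacin, aspirin or diclofenac against at most 1.80% in the others.

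Per length, the order of the genes also differed between groups. In control, Hpgd was the most abundant at 26.7 ± 18.8 CPM per kb, followed by Pla2g4a at 6.73 ± 1.97, Ptgs1 at 4.34 ± 0.80, Alox5 at 0.473 ± 0.044, Ptgs2 at 0.343 ± 0.086 and Alox15 at 0.267 ± 0.228 (SD, n = 2 each). The Ptgs2 and Alox15 libraries overlapped, and no other neighbours in that order did. With diclofenac, Ptgs2 came first at 13.6 ± 11.2 CPM per kb, ahead of Hpgd at 7.21 ± 2.64 and Pla2g4a at 4.15 ± 0.28, but the libraries of Ptgs2, at 5.74 and 21.5, overlapped those of Hpgd, at 5.34 and 9.08. Of the pool of the 6 genes, Ptgs2 took 0.979% ± 0.332 in control and 42.6% ± 16.7 with diclofenac, and Hpgd took 65.4% ± 11.5 and 25.8% ± 4.06 (SD, n = 2 each).

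Alox5 (ENSRNOG00000012972), which encodes the first enzyme of leukotriene synthesis, lies on chromosome 4 from 148398892 to 148446303 on the minus strand and has 17 distinct exons. Its level was 1.29 and 1.14 CPM in control, 2.68 and 3.08 CPM with indomethacin, 3.13 and 4.40 CPM with diclofenac, 2.65 and 3.34 CPM with aspirin and 3.46 and 3.55 CPM with honokiol plus indomethacin. Every treated library lay above both controls, and the lowest of them was 2.65 CPM. How many of all genes show that split was not counted. Alox5 rose with diclofenac, at 1.63 ± 0.28 (log2 fold change ± SE, edgeR adjusted p = 0.0080), and with aspirin, at 1.30 ± 0.28 (0.015). Indomethacin gave 1.24 ± 0.28, which did not pass (edgeR adjusted p = 0.083), although DESeq2 called it (adjusted p = 0.049). Honokiol plus indomethacin gave 1.53 ± 0.28 against control, with a 95% interval of 0.90 to 2.15, and did not pass either (edgeR adjusted p = 0.42), in a comparison where edgeR called 0 genes and DESeq2 called this one (adjusted p = 0.0497). The unadjusted edgeR p against control was 0.00019 with honokiol plus indomethacin and 0.00096 with indomethacin. It was 1.0e-04 with diclofenac and 0.00068 with aspirin. Against indomethacin, honokiol plus indomethacin gave 0.28 ± 0.27, with an interval of -0.30 to 0.87 (edgeR adjusted p = 0.82).

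The diclofenac call of Alox5 was lost without diclofenac replicate 2, at 1.36 (edgeR adjusted p = 0.055). The aspirin call was lost without control replicate 1, at 1.44 (edgeR adjusted p = 0.062), and with a term for Y reads, at 1.29 (0.057). With only libraries without Y reads, neither passed, at 1.76 with diclofenac (edgeR adjusted p = 0.10) and 1.43 with aspirin (0.13). Levels are low, with 75 counts over both controls and 202 to 323 over each treated group.

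**Figure D4:**
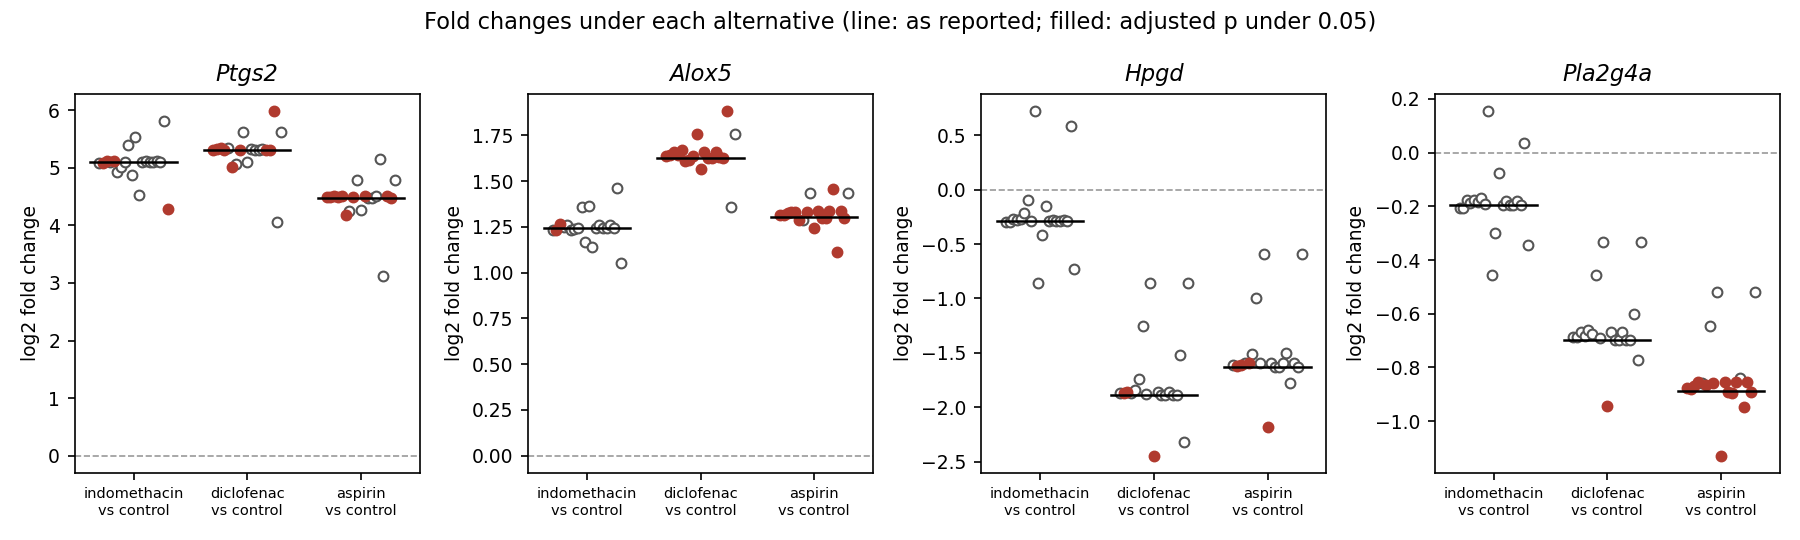
Log2 fold change of Ptgs2, Alox5, Hpgd and Pla2g4a against control under each alternative processing or set of libraries (points; filled at an adjusted p under 0.05), with a line at the value reported. Points of Ptgs2 and Alox5 stay above 0 with all 3 drugs, while Hpgd and Pla2g4a with indomethacin lie on both sides of 0.

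Alox15 (ENSRNOG00000019183), which encodes a lipoxygenase of leukocytes and epithelia, lies on chromosome 10 from 56953691 to 56962161 on the minus strand and has 14 exons. Its level was 0.947 and 0.234 CPM in control, from 30 and 7 counts, and 11.2 and 1.57 CPM with indomethacin, from 401 and 61 counts. With diclofenac it was 0.454 and 1.19 CPM, with aspirin 0.368 and 0.757 CPM and with honokiol plus indomethacin 0.939 and 0.898 CPM. Indomethacin replicate 1 was the single high library, 7.14-fold above its replicate, while replicate 2 still exceeded all 8 other libraries. Indomethacin gave a log2 fold change of 3.41 ± 1.03 against control, which did not pass (SE, edgeR adjusted p = 0.27), and 1.42 without replicate 1 (0.62). Diclofenac gave 0.46 ± 1.06 (edgeR adjusted p = 0.82) and aspirin -0.04 ± 1.10 (0.99). Indomethacin replicate 1 and control replicate 1, each the higher of its pair, hold Y reads. Both honokiol plus indomethacin libraries hold them and the aspirin and diclofenac libraries lack them, so drug and Y reads cannot be told apart between those groups. The cause of the differences within the pairs was not tested. With a term for Y reads, indomethacin gave 3.25 against control (edgeR adjusted p = 0.019). Only the control and indomethacin pairs set that term, and replicate 1 was the higher of each pair. The term thus takes up the difference between the indomethacin replicates, with an SE of 0.52 against 1.03 without it. That pass does not settle whether the level rests on 1 library. Without control replicate 1, indomethacin gave 4.76 (edgeR adjusted p = 0.33), diclofenac 1.83 (0.60) and aspirin 1.34 (0.62). Without indomethacin replicate 2, which leaves the high library alone in its group, indomethacin gave 4.23 against control.

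Honokiol plus indomethacin was compared with indomethacin alone to ask how these genes stood when honokiol was given first. The largest difference among the 6 genes was that of Ptgs2, at 3.53 and 2.1 CPM against 34.7 and 68.6 CPM, with no overlap. Its log2 fold change was -4.19 ± 0.98 (SE, 95% interval -6.56 to -1.82), a level 18.3-fold lower, and stood 43rd from the lowest of 16346 genes, but it did not pass (edgeR adjusted p = 0.24). DESeq2 called it (adjusted p = 0.00077). With a term for Y reads edgeR gave -3.94 (adjusted p = 0.42). Within the libraries with Y reads the value was -3.60, against a single indomethacin library. Against control, honokiol plus indomethacin gave 0.91 ± 0.99 for Ptgs2 (edgeR adjusted p = 0.86), with an interval of -1.48 to 3.30 that does not show equal levels.

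Alox15 was the other gene below indomethacin without overlap, at 0.939 and 0.898 CPM against 11.2 and 1.57 CPM, at -2.79 ± 0.99 (log2 fold change ± SE, edgeR adjusted p = 0.45). Without indomethacin replicate 1 it was -0.78. With a term for Y reads it was -3.48 (edgeR adjusted p = 0.037), but that term takes up the difference between the indomethacin replicates. Against control it gave 0.62 ± 1.08 (edgeR adjusted p = 0.91). Median log2 fold changes of the 6 genes were 0.0081 against indomethacin and 0.26 against control, beside -0.02 and -0.01 over all genes tested. Whether honokiol alone moves any of these genes was not tested.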

How the data were processed

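Stranded paired-end libraries were made after depletion of ribosomal RNA, per the labels' protocols. HISAT2 2.1.0, cutadapt 1.16, featureCounts, SAMtools, FastQC 0.11.7, DESeq2 and bcl2fastq are named in the submitters' processing notes. Genome build, strand setting and handling of multiply matching reads are named in none of the sources used here. The deposited values are raw counts per gene, per the file headers in the layout of featureCounts. No other listed feature overlapped a member gene. Empty lines at the file ends were skipped, 2 in each aspirin and diclofenac file and 1 in each other file. What that difference in layout marks was not tested, and it cannot be told apart from drug in comparisons of those groups with control.

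All 10 libraries entered 1 fit of edgeR 4.0.16 in R 4.3.3 (quasi-likelihood F test, robust, TMM factors, default filterByExpr with minimum count 10 and minimum total 15, group only, 5 residual degrees of freedom), with Benjamini-Hochberg adjustment over 16346 genes and a threshold of 0.05. SE is the log2 fold change over the square root of F. CPM are TMM-scaled. Alternatives included DESeq2 1.42.0, RLE factors, other filters, a term for Y reads and leaving out each library. Exact intervals cover counting error only. The 6 genes, the companion lists and the Y-read alternatives were chosen with earlier results of these data known. All 6 genes are named in every comparison; naming genes of similar pattern or of the pathway and marker lists needed symbols and could not be done. The 2 fits within libraries of 1 Y-read state were added after the data were seen.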

Additional observations from a re-analysis of the deposited data

How the results depend on the processing

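Of 576 alternative values for the 30 gene and comparison pairs, 556 kept the sign reported and 20 did not, and 21 pairs kept it in all. Most leave-outs, the filters and RLE factors drop no compared library and barely move a value, so 556 is no measure of robustness. RLE factors, the stricter filter, the replicate block and leaving out mitochondrial and short single-exon features each gave the reported number of calls. These were 0 for indomethacin, 3 each for diclofenac and aspirin and 0 for both honokiol comparisons. DESeq2 and the fit with no low-count filter each gave 4 for diclofenac and 4 for aspirin. For indomethacin the number was 2 with DESeq2, 3 with no low-count filter, 1 with only the 2 groups compared, 1 with a term for Y reads, 2 with only libraries with Y reads, and 0 to 1 when each library was left out. For diclofenac it was 1 with only the 2 groups compared, 1 with the Y-read term, 0 with only libraries without Y reads, and 0 to 4 over the leave-outs. For aspirin it was 0 with the Y-read term, 0 with only libraries without Y reads, and 0 to 3 over the leave-outs. For honokiol plus indomethacin against indomethacin it was 1 with DESeq2, 2 with no filter, 1 with only the 2 groups compared, 1 with the Y-read term, 2 with only libraries with Y reads and 0 in all leave-outs; against control it was 1 with DESeq2, 1 with no filter and 0 in all leave-outs. With only the 2 groups compared, the calls lost were Ptgs1 (-0.89, edgeR adjusted p = 0.073) and Ptgs2 (5.35, 0.067) with diclofenac and Pla2g4a with aspirin (-0.86, 0.068), and Hpgd with aspirin was gained (-1.59, 0.041). Fits within libraries with Y reads compare 1 indomethacin library with 1 control or with the honokiol pair, whose spread alone sets the p-values, so those counts say little.

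Values that changed sign were these log2 fold changes. With only libraries without Y reads, indomethacin gave 0.035 for Pla2g4a and 0.58 for Hpgd, and aspirin 1.32 for Alox15. With the Y-read term, aspirin gave 1.67 for Alox15, and honokiol plus indomethacin gave -0.31 for Hpgd against indomethacin and -0.23 for Alox15 against control, where only libraries with Y reads gave -0.021. The replicate block gave 0.14 for Alox15 with aspirin. Over the leave-outs, indomethacin ranged from -0.45 to 0.16 for Pla2g4a and from -0.86 to 0.73 for Hpgd, and Alox15 from -0.39 to 1.83 with diclofenac and from -0.70 to 1.34 with aspirin. Honokiol plus indomethacin against indomethacin ranged from -0.38 to 0.015 for Pla2g4a and from -0.44 to 0.61 for Hpgd. Against control it ranged from -0.33 to 0.055 for Ptgs1, from -0.73 to 0.91 for Hpgd and from -0.038 to 1.97 for Alox15. The cause was not tested.

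Without division by length, Ptgs2 to Ptgs1 was 0.123 in control, 5.36 with indomethacin and 0.255 with honokiol plus indomethacin. Lengths change that ratio by the same factor in every library, so its order of groups could not change. Hpgd to the sum of Ptgs1 and Ptgs2 was 0.675 with indomethacin, 0.219 with diclofenac, 0.408 with aspirin and 2.95 with honokiol plus indomethacin. Its group order was the same as per length.

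Over all genes, calls for indomethacin were 127 as reported, 376 with DESeq2, 834 with no filter, 262 with only the 2 groups, 39 with only libraries without Y reads and 1 to 200 over the leave-outs. For diclofenac they were 1286, 2650 with no filter, 527 with only the 2 groups, 383 with the Y-read term, 150 with only libraries without Y reads and 319 to 1434 over the leave-outs. For aspirin they were 2903, 1759 with only the 2 groups, 683 with the Y-read term, 184 with only libraries without Y reads and 462 to 3606 over the leave-outs. Honokiol plus indomethacin gave 56 against indomethacin, 243 with DESeq2, 699 with no filter, 250 with only the 2 groups, 35 with the Y-read term, 191 with only libraries with Y reads and 0 to 118 over the leave-outs, and 0 against control, 16 with DESeq2, 153 with no filter, 3 with only the 2 groups, 5 with only libraries with Y reads and 0 to 1 over the leave-outs. Replicate differences correlated at 0.13 to 0.30 between groups of 1 file layout and -0.26 to -0.10 otherwise, so pairing is not excluded. Replicate-block calls were 123, 935, 2106, 71 and 0, in the order above. A library left alone in a group was assumed to vary like the other groups. Depth limits Alox15, with 7 to 61 counts in 9 of the 10 libraries.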
